A study of Homo sapiens with 9 samples.

Results

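The 10 genes described here, CDKN1A, BBC3, PLK3, GDF15, GADD45A, GADD45B, MDM2, SESN1, TP53INP1 and AEN, form a set of growth-arrest and p53-target genes that was chosen by gene symbol from the 62710 genes of the count table, each gene identifier taken once. All 10 were found and all 10 passed the filter on low counts. The study asked how bacterial products change gene expression in intestinal tumor epithelium. RNA was sequenced from HT-29, a human colorectal adenocarcinoma line that grows as an epithelium in culture. The label of wild-type genotype sets these cells apart from HT-29 cells lacking ALPK1, which the study also used, and does not speak of p53, since HT-29 is known to carry mutant p53. Of the 9 libraries, 3 came from non-stimulated cells, 3 from cells given 500 ng/mL flagellin and 3 from cells given 500 ng/mL ADP-heptose, all taken after 2.5 h. The dose and time come from the methods of the study, since the sample labels name only the treatment. ADP-heptose is a sugar nucleotide of lipopolysaccharide synthesis that is sensed inside cells by the kinase ALPK1, and flagellin is the flagellar protein sensed at the cell surface by TLR5, so the flagellin libraries stand beside ADP-heptose as a second innate stimulus.

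p53 is a transcription factor that is stabilized by DNA damage and other stress, and its targets stop the cell cycle, repair DNA or start cell death, while its target MDM2 marks p53 for degradation and so closes a feedback loop. Many of these targets also answer to other transcription factors and to stress kinases. The line is a single tumor cell population, and in bulk RNA a change in the share of responding cells and a change in RNA per cell cannot be told apart. The study describes the RNA-sequencing samples as coming from independent experiments, 3 per group, while the labels do not say which libraries share an experiment.

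Library totals ran from 35040844 to 37537705 counts in non-stimulated cells, from 30770448 to 38304035 after flagellin and from 50054773 to 58272772 after ADP-heptose. Of 10 markers of colon epithelium, 9 had over 10 counts in every library, the exception being CDX1, with 0 counts in the non-stimulated and flagellin libraries and a few counts after ADP-heptose. Of 9 markers of immune cells, fibroblasts and endothelium, 8 had at most 10 counts in every library, the exception being COL1A1, with up to 1019 counts. ADP-heptose replicate 3 stood apart: over 11854 genes with a mean of at least 100 counts, the SD of the log2 difference between replicates was 0.374 and 0.38 for the pairs that held it, against 0.127 for the other ADP-heptose pair and 0.163 to 0.197 within the other groups. For the genes of the set that were called after ADP-heptose, the log2 fold changes are therefore given with and without this library. Most values of other genes are given only with it.

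The stretch of 250 bases before the transcription start is shown for the 4 genes with the largest rise after ADP-heptose (CDKN1A, BBC3, PLK3, GDF15). It is also shown for SESN1, which was lower, and for AEN. Among the 8 genes that had a window to search, AEN was the one with a p53 decamer. The sequences are RefSeq's (GRCh38.p14), written 5′ to 3′ on the strand of the gene. They cover chr6:36678464-36678713 (plus strand) for CDKN1A, chr19:47232668-47232917 (minus strand) for BBC3, chr1:44800127-44800376 (plus strand) for PLK3, chr19:18385908-18386157 (plus strand) for GDF15, chr6:109094847-109095096 (minus strand) for SESN1 and chr15:88621090-88621339 (plus strand) for AEN. Capitals mark matches, on either strand, to the motifs searched: the GC box (GGGCGG), the CCAAT box (CCAAT), the TATA box (TATAAA), the AP-1 site (TGANTCA), the cAMP response element (TGACGTCA), the NF-κB site and the p53 decamer, which is the 10-base unit that a full p53 site holds as a pair.
CDKN1A: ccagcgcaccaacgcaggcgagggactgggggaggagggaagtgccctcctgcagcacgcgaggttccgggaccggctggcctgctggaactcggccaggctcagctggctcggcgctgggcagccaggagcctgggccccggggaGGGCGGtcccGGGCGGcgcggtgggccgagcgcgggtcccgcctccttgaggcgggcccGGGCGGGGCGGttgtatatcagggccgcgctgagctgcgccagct
BBC3: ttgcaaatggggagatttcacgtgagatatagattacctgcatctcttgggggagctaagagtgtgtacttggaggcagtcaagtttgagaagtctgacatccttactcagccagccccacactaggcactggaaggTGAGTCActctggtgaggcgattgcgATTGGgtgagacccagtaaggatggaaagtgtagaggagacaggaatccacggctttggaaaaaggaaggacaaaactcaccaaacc
PLK3: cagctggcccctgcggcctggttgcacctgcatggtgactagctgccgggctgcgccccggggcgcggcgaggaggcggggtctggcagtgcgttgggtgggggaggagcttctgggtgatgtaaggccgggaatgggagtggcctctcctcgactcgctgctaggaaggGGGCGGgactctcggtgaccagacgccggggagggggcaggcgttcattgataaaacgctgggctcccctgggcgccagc
GDF15: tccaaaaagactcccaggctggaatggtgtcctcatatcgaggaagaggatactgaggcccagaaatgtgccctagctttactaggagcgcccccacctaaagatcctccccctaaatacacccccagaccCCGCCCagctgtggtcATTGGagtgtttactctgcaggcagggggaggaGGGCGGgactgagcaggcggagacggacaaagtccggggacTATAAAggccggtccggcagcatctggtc
SESN1: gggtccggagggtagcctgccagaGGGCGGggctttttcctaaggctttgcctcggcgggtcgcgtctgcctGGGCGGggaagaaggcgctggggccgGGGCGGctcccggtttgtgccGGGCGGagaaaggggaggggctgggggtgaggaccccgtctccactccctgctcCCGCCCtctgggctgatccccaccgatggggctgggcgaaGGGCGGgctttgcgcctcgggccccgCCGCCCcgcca
AEN: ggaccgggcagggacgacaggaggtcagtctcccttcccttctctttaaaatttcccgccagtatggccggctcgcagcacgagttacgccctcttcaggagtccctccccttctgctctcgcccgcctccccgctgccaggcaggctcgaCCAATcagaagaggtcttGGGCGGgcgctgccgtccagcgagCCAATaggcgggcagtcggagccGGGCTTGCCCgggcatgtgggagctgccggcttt

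In the windows searched, which ran from 250 bases before to 50 bases after the start, 8 of the 10 genes had an entry, GADD45A and TP53INP1 having none in the table used. CDKN1A held 4 GC boxes, of which those at −45 and −40 overlap by a base, and no other motif of the list. The BBC3 window held an AP-1 site at −113 and a CCAAT box on the opposite strand at −87. The window of GDF15 held a TATA box at −29, 2 GC boxes and a CCAAT box, and that of PLK3 held 2 GC boxes, one of them after the start. SESN1, the one gene with a window that was lower after ADP-heptose, held 8 GC boxes, 7 of them in the stretch printed above. The windows of the genes that did not pass the test held a TATA box at −31 and 2 CCAAT boxes for GADD45B, and a GC box at −5 and 2 overlapping CCAAT boxes on opposite strands for MDM2. AEN held the p53 decamer at −34, a GC box at −81 and CCAAT boxes at −99 and −57. Of all 35116 RefSeq windows of this length, 45% held a GC box, 34.6% a CCAAT box, 11.5% a TATA box, 7.71% an AP-1 site, 6.63% a p53 decamer, 5.91% an NF-κB site and 1.85% a cAMP response element. The NF-κB site and the cAMP response element were in none of the 8 windows, and the p53 decamer was in that of AEN alone. This says only where these letters occur within the windows. A single window per gene was searched, so other start sites and sequence farther away were not covered. The windows of CDKN1A and GDF15 lie wholly inside the gene positions given below.

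After ADP-heptose, CDKN1A, BBC3, PLK3 and GDF15 rose by 2.99-fold to 6.57-fold, GADD45A and AEN rose by less than 2-fold, SESN1 and TP53INP1 were lower, and GADD45B and MDM2 did not pass the test. Flagellin moved none of the 10 past the threshold in the fit of all 9 libraries. A gene was called at an adjusted p under 0.05 in edgeR's quasi-likelihood test with Benjamini-Hochberg adjustment over the 17412 genes tested, and every adjusted p below is from this test unless another tool is named. By this rule 6 of the 10 genes were higher after ADP-heptose than in non-stimulated cells, where 7.48% of all genes tested were, and 2 of the 10 were lower, where 4.42% were. A rise of at least 2-fold was called for 4 of the 10, against 2.89% of all genes. The libraries of both groups did not overlap for 8 of the 10 genes, against 30.1% of all genes tested. The median log2 fold change of the 10 was 0.48, and that of all genes tested was 0.01. The 10 genes and the gene lists used below were chosen with earlier results of these data known. Their counts beside the shares of all genes are therefore a description of the genes chosen. For 1 gene in 3 libraries against 3, the smallest two-sided p that an exact permutation test allows is 0.1, so the calls rest on the fit across all genes.

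**Figure D1:**
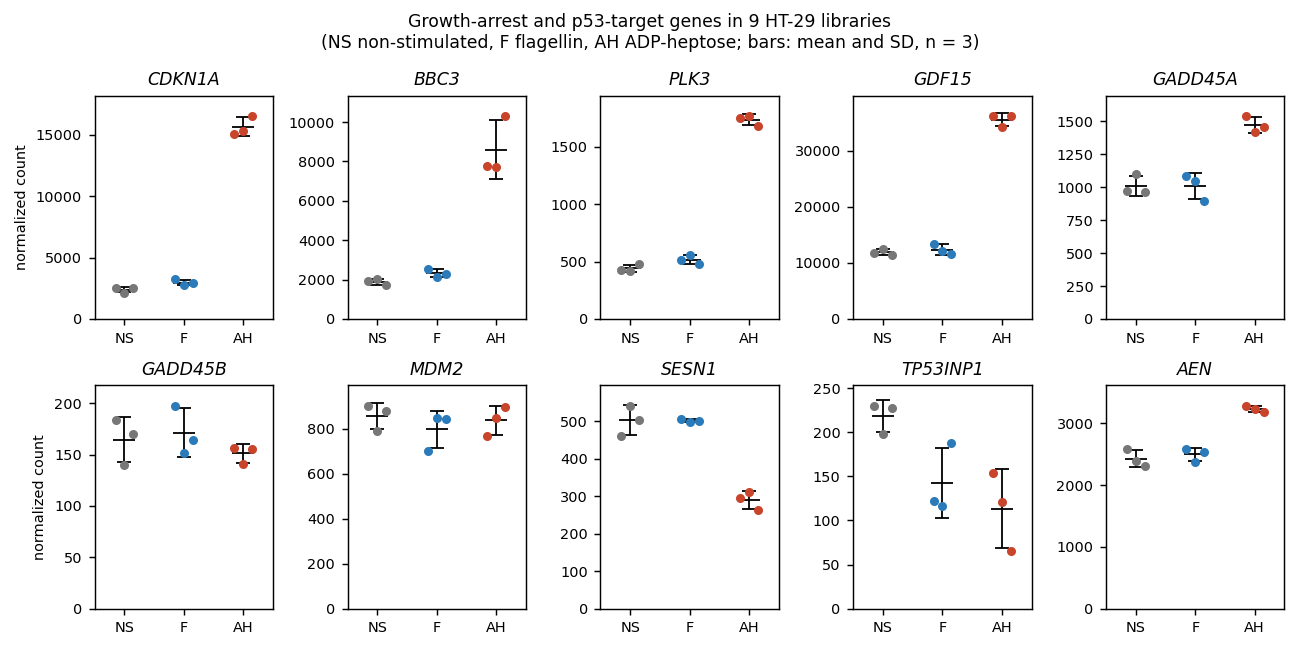
Normalized count of each of the 10 genes (vertical axis, from 0, with its own scale in each panel) in the 3 non-stimulated (NS, grey), 3 flagellin (F, blue) and 3 ADP-heptose (AH, red) libraries. Points are libraries and bars are the mean and SD (n = 3). The AH points of CDKN1A, BBC3, PLK3, GDF15, GADD45A and AEN lie above all NS and F points, those of SESN1 lie below them, and those of GADD45B and MDM2 lie among them.

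The largest change was in CDKN1A (chr6:36676460-36687339, plus strand, GRCh38), which encodes p21, the inhibitor of cyclin-dependent kinases that holds cells in G1. Its normalized counts, which are counts scaled to a common effective library size, were 2511, 2144 and 2493 in non-stimulated replicates 1 to 3, 3229, 2766 and 2912 after flagellin, and 15090, 15360 and 16550 after ADP-heptose. All ADP-heptose libraries lay far above the other 6, and all flagellin libraries lay a little above the non-stimulated ones. The rise after ADP-heptose was 6.57-fold (log2 fold change 2.72, SE 0.0889, 95% interval 2.52 to 2.91, adjusted p = 8.66e-10), and it was 2.68 on the log2 scale without ADP-heptose replicate 3.

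BBC3 (chr19:47220822-47232766, minus strand) encodes PUMA, a BH3-only protein that starts mitochondrial apoptosis. It had 1907, 2013 and 1734 normalized counts in non-stimulated cells, 2536, 2157 and 2294 after flagellin, and 7772, 7691 and 10310 after ADP-heptose. As for CDKN1A, the ADP-heptose libraries were well above the rest and the flagellin libraries were just above the non-stimulated ones, and ADP-heptose replicate 3 was the highest library of the series. The rise after ADP-heptose was 4.56-fold (log2 fold change 2.19, SE 0.119, 95% interval 1.93 to 2.45, adjusted p = 8.87e-08), or 2.04 on the log2 scale without replicate 3.

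PLK3 (chr1:44800225-44805990, plus strand) encodes a polo-like kinase of the stress response that is known to restrain the cell cycle. It had 426, 419.6 and 477.9 normalized counts in non-stimulated cells, 511.9, 556.1 and 481.1 after flagellin, and 1753, 1768 and 1682 after ADP-heptose. The ADP-heptose libraries lay close together and far above the others. The rise was 3.93-fold (log2 fold change 1.98, SE 0.0885, 95% interval 1.78 to 2.17, adjusted p = 1.28e-08), or 2.001 on the log2 scale without ADP-heptose replicate 3.

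GDF15 (chr19:18374731-18389176, plus strand) encodes a secreted stress cytokine of the TGF-β superfamily. Its normalized counts were 11750, 12460 and 11420 in non-stimulated cells, 13370, 12190 and 11580 after flagellin, and 36210, 34290 and 36170 after ADP-heptose. Flagellin and non-stimulated libraries overlapped, and the ADP-heptose libraries stood above both. The rise after ADP-heptose was 2.99-fold (log2 fold change 1.58, SE 0.076, 95% interval 1.42 to 1.75, adjusted p = 2.56e-08), or 1.57 on the log2 scale without replicate 3.

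The GADD45 proteins bind the kinase MAP3K4 and proteins of the cell cycle, and the 2 family members in the set behaved differently. GADD45A (chr1:67685061-67688338, plus strand) had 974.7, 1098 and 963.3 normalized counts in non-stimulated cells, 1088, 1048 and 898.3 after flagellin, and 1542, 1423 and 1455 after ADP-heptose. All ADP-heptose libraries were above the other 6, a rise of 1.46-fold (log2 fold change 0.54, SE 0.0912, 95% interval 0.343 to 0.741, adjusted p = 0.00173). The call was lost when the fit was corrected for exon length and GC content (log2 fold change 0.30, adjusted p = 0.0585). This alternative was chosen after the data were seen. Without ADP-heptose replicate 3 the log2 fold change was 0.56. GADD45B (chr19:2476122-2478259, plus strand) had 183.6, 140.2 and 169.7 normalized counts in non-stimulated cells, 197.5, 151 and 164.6 after flagellin, and 156.6, 140.7 and 155.7 after ADP-heptose. The 3 groups overlapped, with a log2 fold change of −0.13 after ADP-heptose (95% interval −0.461 to 0.209, adjusted p = 0.643).

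AEN (chr15:88621296-88632282, plus strand) encodes a nuclease that takes part in apoptosis. It had 2582, 2384 and 2316 normalized counts in non-stimulated cells, 2586, 2381 and 2534 after flagellin, and 3287, 3232 and 3188 after ADP-heptose. The ADP-heptose libraries were above all others and within a narrow range. The rise was 1.33-fold (log2 fold change 0.41, SE 0.0696, 95% interval 0.263 to 0.566, adjusted p = 0.00167), or 0.43 on the log2 scale without ADP-heptose replicate 3.

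MDM2 (chr12:68808176-68850686, plus strand), the ubiquitin ligase that limits p53, did not follow the arrest and death genes. It had 901.5, 788.8 and 877.9 normalized counts in non-stimulated cells, 699, 847.9 and 840.9 after flagellin, and 768.2, 846.4 and 894.1 after ADP-heptose. The groups overlapped throughout. The log2 fold change after ADP-heptose was −0.03 (95% interval −0.255 to 0.186, adjusted p = 0.861), an interval that holds no change of 2-fold in either direction.

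SESN1 (chr6:108986437-109094819, minus strand) encodes sestrin 1, a stress protein that lowers mTORC1 activity. It had 462.1, 541.9 and 504.9 normalized counts in non-stimulated cells, 506.7, 498.9 and 500.2 after flagellin, and 296.6, 310.7 and 264.2 after ADP-heptose. All ADP-heptose libraries were below the other 6, with a ratio of 0.578 to non-stimulated cells (log2 fold change −0.79, SE 0.102, 95% interval −1.01 to −0.566, adjusted p = 0.00021). The log2 fold change was −0.72 without ADP-heptose replicate 3.

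TP53INP1 (chr8:94925972-94949411, minus strand) encodes a stress-induced nuclear protein that acts with p53 in cell death and autophagy, and was the gene of the set with the fewest reads, from 74 to 223 counts per library. It had 230, 197.5 and 227 normalized counts in non-stimulated cells, 122, 116.7 and 187.6 after flagellin, and 154.1, 120.7 and 65.83 after ADP-heptose. The libraries of both stimuli were below all non-stimulated ones and spread widely, and ADP-heptose replicate 3 was the lowest of the 9. The ratio after ADP-heptose was 0.522 (log2 fold change −0.94, SE 0.265, 95% interval −1.52 to −0.359, adjusted p = 0.0389). The call was held without ADP-heptose replicate 3 (log2 fold change −0.67, adjusted p = 0.00906) but was lost without ADP-heptose replicate 2 (adjusted p = 0.0617), without flagellin replicates 1 or 2 (0.0585 and 0.0552), without non-stimulated replicates 1, 2 or 3 (0.129, 0.0753 and 0.122) and in the fit of 6 libraries (0.0688).

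Correction for exon length and GC content changed the values of the genes that rose most. ADP-heptose replicate 3 had offsets of 0.292 to 0.428 on the log2 scale for CDKN1A, BBC3, PLK3, GDF15, GADD45A and GADD45B, against −0.0342 to 0.0237 for the other ADP-heptose libraries in these genes. With these offsets the log2 fold changes after ADP-heptose were 2.5 for CDKN1A, 1.94 for BBC3, 1.78 for PLK3 and 1.31 for GDF15, all 4 still called. The part of length and GC content in the uncorrected values was not tested further.

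Per length of annotated exons, the 10 genes spanned a wide range of levels. This length is the union of all exons of a gene, so the order between genes depends on the annotation. In RPKM (reads per kilobase of exon, scaled to the effective library size), the mean levels in non-stimulated cells were 141 for GDF15, 19.4 for CDKN1A, 14.7 for BBC3, 12.1 for GADD45A, 10.01 for AEN, 3.15 for PLK3, 2.44 for SESN1, 1.91 for GADD45B, 1.60 for MDM2 and 0.954 for TP53INP1. In this order GADD45B and MDM2 were the only neighbours whose libraries overlapped. After ADP-heptose the leading genes remained in the same order, at 423 RPKM for GDF15, 127 for CDKN1A and 67.0 for BBC3, with PLK3 at 12.4, next to AEN at 13.3. SESN1 moved below MDM2, at 1.41 against 1.56 RPKM, with overlapping libraries, and GADD45B and MDM2 overlapped as before. After flagellin the order was that of non-stimulated cells, and no neighbours overlapped.

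The flagellin libraries addressed whether another innate stimulus moved these genes. By edgeR 0 of the 10 genes were called higher, where 0.368% of all genes tested were, and 0 were called lower, where 0.0115% were. DESeq2 also called 0, and 4 of the 10 had an unadjusted p under 0.05. The groups did not overlap for 4 of the 10 genes, 3 above and 1 below the non-stimulated libraries, against 12.9% of all genes tested. The log2 fold changes of these were 0.32 for CDKN1A (95% interval 0.133 to 0.502, adjusted p = 0.398), 0.31 for BBC3 (0.0529 to 0.558, adjusted p = 1), 0.23 for PLK3 (0.0315 to 0.424, adjusted p = 1) and −0.63 for TP53INP1 (−1.21 to −0.0424, adjusted p = 1).

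The flagellin count depended on a library of the other stimulus, since all groups share 1 estimate of the spread. Without ADP-heptose replicate 3, CDKN1A (log2 fold change 0.31, adjusted p = 0.000867) and BBC3 (0.30, adjusted p = 0.00236) were called higher after flagellin, 2 of the 10 genes, against 0.918% of all genes tested in that fit. In the fit of the 6 non-stimulated and flagellin libraries the same 2 genes were called, CDKN1A with an adjusted p of 0.00344 and BBC3 with 0.00743, against 0.835% of all genes. The common biological coefficient of variation was 0.109 with all 9 libraries and 0.0545 without ADP-heptose replicate 3, while leaving out any other library gave 0.107 to 0.118. The fold changes themselves moved little with these settings.

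The other 6 genes had log2 fold changes near 0 after flagellin, from −0.11 for MDM2 (95% interval −0.329 to 0.116) to 0.06 for GDF15 (−0.102 to 0.222). GADD45B had 0.06 with the widest interval of these (−0.282 to 0.396), AEN had 0.04 (−0.11 to 0.195), and GADD45A and SESN1 had intervals of −0.201 to 0.202 and −0.223 to 0.218. A change of 2-fold lies outside each of these intervals. The median of the 10 after flagellin was 0.05, and that of all genes tested was 0.00.

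**Figure D2:**
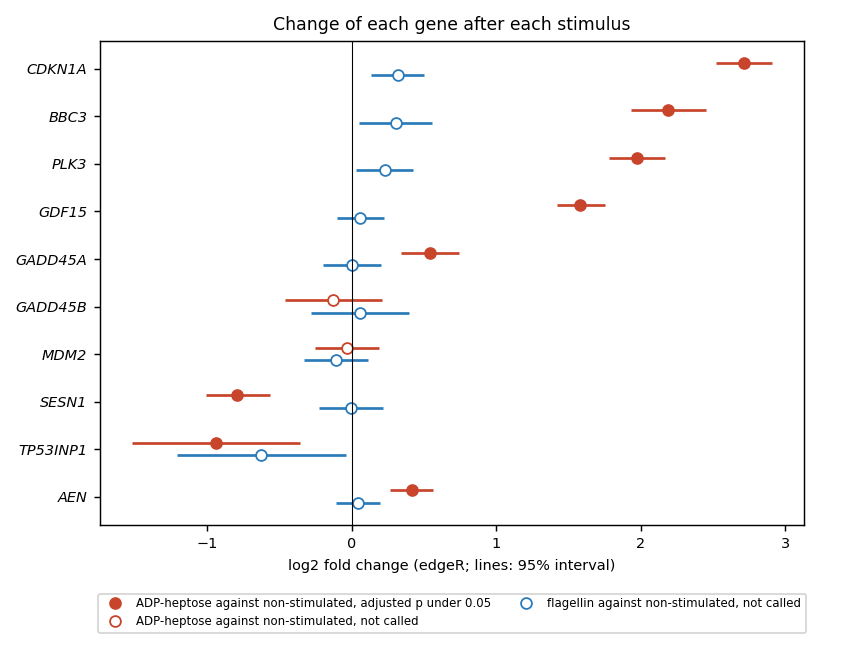
Log2 fold change against non-stimulated cells (horizontal axis) of each of the 10 genes after ADP-heptose (red) and flagellin (blue), from the edgeR fit of 9 libraries. Lines are 95% intervals, filled points passed an adjusted p of 0.05 and open points did not. The red points of CDKN1A, BBC3, PLK3 and GDF15 lie between 1.58 and 2.72, while the blue points of these genes lie between 0.06 and 0.32 and are all open.

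Compared directly, the ADP-heptose libraries were higher than the flagellin libraries for 6 of the 10 genes past an adjusted p of 0.05, where 5.4% of all genes tested were, and lower for 1 of the 10, where 2.76% were. The difference was at least 2-fold for 4 of the 10, against 2.06% of all genes. The log2 differences were 2.40 for CDKN1A (SE 0.0878, adjusted p = 3.74e-09), 1.88 for BBC3 (SE 0.118, adjusted p = 5.05e-07), 1.75 for PLK3 (SE 0.0877, adjusted p = 5.52e-08) and 1.52 for GDF15 (SE 0.0759, adjusted p = 5.52e-08). GADD45A and AEN were also higher after ADP-heptose, by 0.54 (adjusted p = 0.00219) and 0.37 (adjusted p = 0.00462), and SESN1 was lower, at −0.79 (adjusted p = 0.000296). Without ADP-heptose replicate 3 these differences were 2.37, 1.74, 1.78, 1.52, 0.56, 0.39 and −0.71 in the same order of genes. With library totals in place of TMM factors, which moved the median of all genes to −0.11, AEN lost its call (0.25, adjusted p = 0.0557).

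TP53INP1 had a lower mean than in non-stimulated cells after both stimuli. Its log2 difference between ADP-heptose and flagellin was −0.31 (95% interval −0.906 to 0.282, adjusted p = 0.554), an interval wide enough to hold a change of over 1.5-fold downwards. MDM2 and GADD45B differed by 0.07 (−0.149 to 0.294) and −0.18 (−0.518 to 0.152). These 3 genes did not pass the test between the stimuli. The fold changes of both stimuli share the 3 non-stimulated libraries and are not independent of each other.

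Relatives of the 10 genes were called in both directions after ADP-heptose. Of 16 tested, 7 were higher, 5 were lower and 4 did not pass the test, where 7.48% of all genes tested were higher and 4.42% lower. After flagellin none of the 16 passed by edgeR, where 0.368% of all genes were higher and 0.0115% lower, and 1 had an unadjusted p under 0.05. That gene was PLK2 (log2 fold change 0.26 by DESeq2, adjusted p = 0.002), which was also called without ADP-heptose replicate 3 (adjusted p = 9.97e-05). Among the sestrins, SESN2 rose while SESN1 and SESN3 fell: SESN2 had a log2 fold change of 0.82 (adjusted p = 1.99e-05) and SESN3 of −0.46 (adjusted p = 0.0261). The third GADD45 gene, GADD45G, was lower at −0.83 (adjusted p = 0.0233), beside the rise of GADD45A. Of the polo-like kinases, PLK2, a stress-response kinase like PLK3, rose by 1.42 (adjusted p = 1.62e-08), the mitotic kinase PLK1 fell by 0.22 on the log2 scale (adjusted p = 0.0329), and PLK4, which acts in centriole duplication, was at −0.19 and not called. The call was kept in all 17 alternatives for SESN2 and PLK2, in 12 for SESN3 and GADD45G and in 7 for PLK1. Leaving out any 1 of the non-stimulated libraries ended the calls of SESN3, GADD45G and PLK1, as did leaving out ADP-heptose replicate 1 for GADD45G and PLK1, ADP-heptose replicate 2 for PLK1 and flagellin replicates 2 or 3 for PLK1.

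The BH3-only genes, which encode triggers of mitochondrial apoptosis as BBC3 does, divided likewise. PMAIP1 (NOXA) rose by 1.40 on the log2 scale (adjusted p = 1.62e-07), BIK by 1.01 (adjusted p = 0.00119) and BID by 0.30 (adjusted p = 0.0265). BMF and BCL2L11 (BIM) were lower, at −0.66 (adjusted p = 0.00173) and −0.47 (adjusted p = 0.0127), and BAD was at 0.24 and not called. The calls of PMAIP1, BIK and BMF were kept in all 17 alternatives, while BCL2L11 lost its call without non-stimulated replicate 1 and BID without non-stimulated replicates 1 or 3. HRK had at most 3 counts in any library and was not tested. The relatives of AEN, the exonuclease genes ISG20 and ISG20L2, rose by 2.43 (adjusted p = 2.32e-05) and 0.36 (adjusted p = 0.00464). ISG20 went from 62.6 ± 10.8 to 338 ± 40.3 normalized counts (SD, n = 3). MDM4, the partner of MDM2 in limiting p53, was at −0.05 and TP53INP2 at 0.56, and neither was called.

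**Figure D3:**
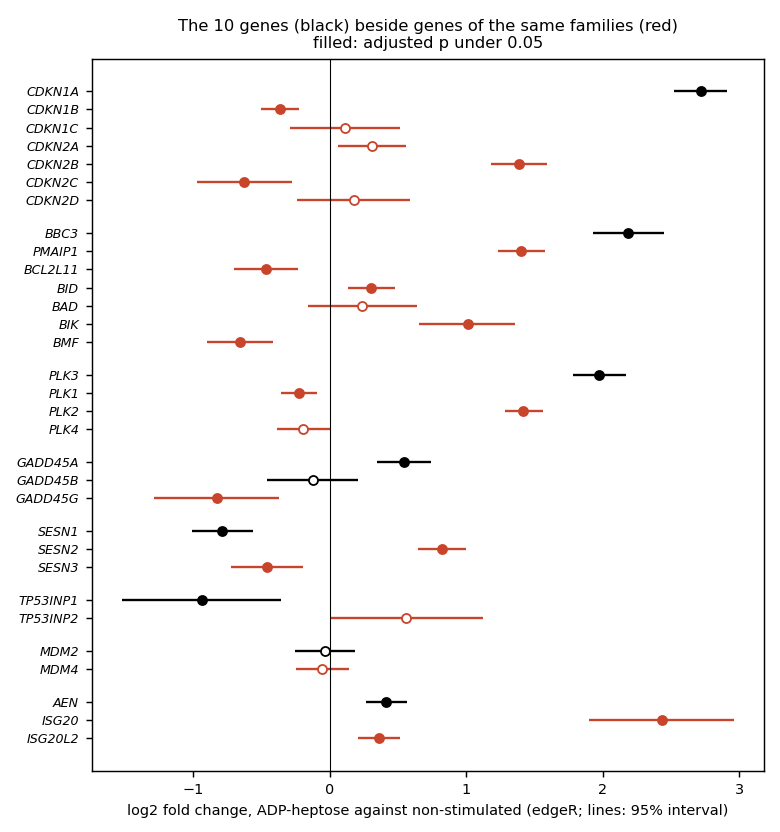
Log2 fold change after ADP-heptose against non-stimulated cells (horizontal axis) of the 10 genes except GDF15 (black) and of genes of the same families (red). Genes are grouped by family, with 95% intervals and with filled points for an adjusted p under 0.05. CDKN1A, BBC3 and PLK3 lead their families at 2.72, 2.19 and 1.98, SESN2 and PLK2 lie to the right of 0, and SESN1, SESN3, GADD45G, BMF and BCL2L11 lie to its left.

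The arrest machinery around CDKN1A was described with 3 further lists, to be read against the 7.48% of all genes tested that were higher after ADP-heptose and the 4.42% that were lower. Of 6 other inhibitors of cyclin-dependent kinases, 1 was higher and 2 were lower. CDKN2B (p15) rose by 1.38 on the log2 scale (adjusted p = 7.24e-07), from 1115 ± 26 to 2906 ± 379 normalized counts (SD, n = 3), and CDKN1B (p27) and CDKN2C (p18) were lower, at −0.37 (adjusted p = 0.00217) and −0.63 (adjusted p = 0.0228). CDKN1C, CDKN2A and CDKN2D did not pass the test. CDKN2B and CDKN1B kept their calls in all 17 alternatives, and CDKN2C lost its call without ADP-heptose replicate 1 or without non-stimulated replicates 1 or 2. Of 10 G1 cyclins, cyclin-dependent kinases and pocket proteins tested, CCNE2, a cyclin of the G1 to S transition, was the one called, at −0.89 (adjusted p = 0.0435), a single gene from which nothing is read about the list, with 97.4 ± 5.07 normalized counts in non-stimulated cells and 52.4 ± 19.5 after ADP-heptose (SD, n = 3). Its call was kept in 7 of 17 alternatives and was lost on leaving out any single library other than ADP-heptose replicate 1. Of 4 partners of GADD45 proteins, MAP3K4 was lower at −0.38 (adjusted p = 0.00572) and the other 3 did not pass the test.

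Most other targets of p53 did not pass the test after ADP-heptose. Of 28 p53 targets outside the set, SPATA18 and EDA2R were too low to be tested. This list too was written with earlier results of these data known. Of the 26 tested, 7 were higher after ADP-heptose and 0 were lower by edgeR, against 7.48% and 4.42% of all genes tested, with a median log2 fold change of 0.08. DESeq2 called 9 higher and 0 lower, and at an unadjusted p under 0.05 there were 9 higher and 3 lower (XPC, RRM2B and SUSD6). With library totals, which moved the median of all genes to −0.13, 5 of the 26 were called lower (XPC, DDB2, RRM2B, FBXO22 and SUSD6). Without ADP-heptose replicate 3, DDB2 and SUSD6 were called lower, and without ADP-heptose replicate 1, SUSD6 was.

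The 7 that rose were NINJ1 (log2 fold change 2.55, adjusted p = 1.09e-08), which encodes a membrane protein of plasma membrane rupture, TNFRSF10B (1.65, adjusted p = 3.41e-07), the death receptor DR5, PLK2, PMAIP1, BTG2 (1.08, adjusted p = 6.56e-06), an antiproliferative gene, SESN2 and PHLDA3 (0.53, adjusted p = 0.0383), an inhibitor of AKT. PLK2, PMAIP1 and SESN2 are also counted among the relatives. PHLDA3 lost its call without any 1 of the flagellin or non-stimulated libraries, and the other 6 kept theirs in all 17 alternatives. Well-known targets such as BAX (0.12), FAS (0.16), CCNG1 (0.02), DDB2 (−0.14), PPM1D (0.03) and ZMAT3 (−0.25) did not pass the test. These 6 were named after their values were seen.

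After flagellin, NINJ1 was the 1 p53 target of the 26 that was called, where 0.368% of all genes tested were higher, at 0.68 (adjusted p = 0.0148), with 675 ± 48.9 normalized counts in non-stimulated cells, 1084 ± 57.1 after flagellin and 3945 ± 587 after ADP-heptose (SD, n = 3). The number called after flagellin was 3 without ADP-heptose replicate 3 (NINJ1, PLK2 and TNFRSF10B, against 0.918% of all genes) and 0 without flagellin replicate 1, flagellin replicate 2, non-stimulated replicate 1 or non-stimulated replicate 3. Between ADP-heptose and flagellin, 6 of the 26 were higher after ADP-heptose and 0 lower by edgeR, against 5.4% and 2.76% of all genes, with 8 and 1 at an unadjusted p under 0.05 and 7 and 0 by DESeq2.

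**Figure D4:**
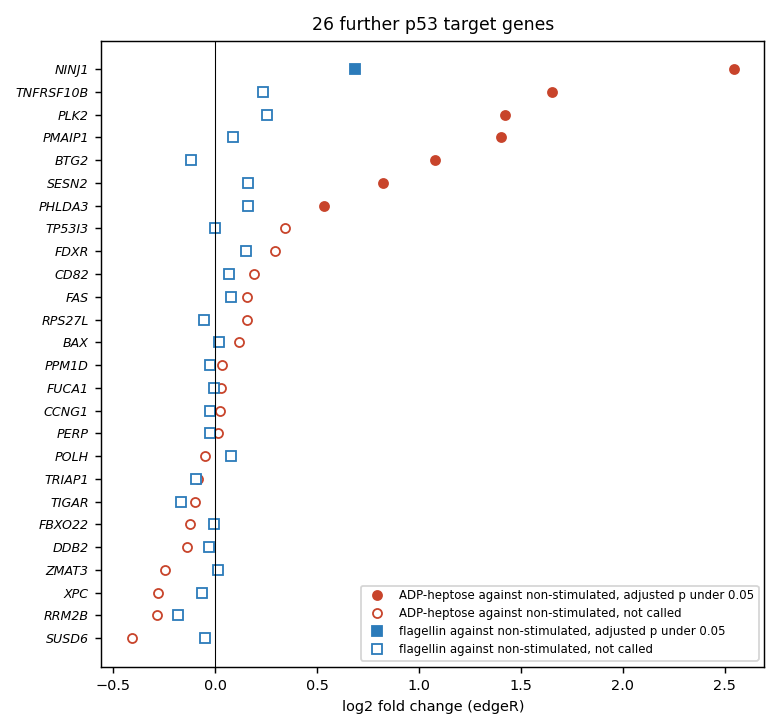
Log2 fold change against non-stimulated cells (horizontal axis) of 26 p53 target genes outside the set after ADP-heptose (red circles) and flagellin (blue squares), ordered by the ADP-heptose value. Filled symbols passed an adjusted p of 0.05 and open ones did not. The 7 filled red circles run from 0.53 for PHLDA3 to 2.55 for NINJ1, the only filled blue square is NINJ1 at 0.68, and the other 19 genes lie between −0.41 and 0.34 after ADP-heptose.

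Of 16 genes tested that regulate p53 or belong to its family, PPP1R13L, which encodes the inhibitor iASPP, rose by 0.28 on the log2 scale (adjusted p = 0.026) and RCHY1, a ubiquitin ligase for p53, by 0.35 (adjusted p = 0.033) after ADP-heptose, and the other 14 did not pass the test. These 2 of 16 stand beside 7.48% of all genes tested, so the count says little about the list. PPP1R13L kept its call in 8 and RCHY1 in 7 of 17 alternatives. Leaving out ADP-heptose replicate 1, flagellin replicate 2 or non-stimulated replicates 2 or 3 ended both calls, leaving out non-stimulated replicate 1 ended that of PPP1R13L, and leaving out ADP-heptose replicate 2 or flagellin replicates 1 or 3 ended that of RCHY1. TP63 of this list was too low to be tested. None of the 16 was called after flagellin by edgeR or DESeq2, with 0 at an unadjusted p under 0.05.

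Over the 9 libraries the 4 leading genes ran close together. Between any pair of CDKN1A, BBC3, PLK3 and GDF15, Pearson's r of log2 CPM (counts scaled to effective library size) was 0.98 to 0.994. Each of them had r of −0.979 to −0.967 with SESN1. GADD45B and MDM2 had r between −0.426 and 0.0486 with these 4. The points share the 3 groups and the depth of each library, so r is given as a description, as are the values that follow.

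Among 9720 other genes whose mean log2 CPM was 3 or more, those most like CDKN1A over the 9 libraries were RELA (r = 0.9988), SQSTM1 (0.998) and IER3 (0.998). Those most like BBC3 were SLC25A22 (0.9977), TRIM47 (0.9972) and EHD1 (0.9971), and those most like PLK3 were PDGFB (0.9988), MAFF (0.9982) and ATF3 (0.9979). CLCF1 (0.9986), DUSP5 (0.9981) and PIM3 (0.9978) were the nearest to GDF15. These 12 genes were all higher after ADP-heptose, with log2 fold changes from 0.95 for RELA to 4.02 for ATF3. Because they were picked by r over the same libraries, this shared direction follows from the choice and is no separate result.

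GADD45A was most like ADAM8 (r = 0.9881) and CSNK1D (0.9824), and AEN was most like BCL10 (0.9866), UBE2Z (0.9843) and FOXP4 (0.984). For SESN1 the nearest were TXNIP (0.9958), HSF2 (0.9887) and AXIN2 (0.9874). Their log2 fold changes after ADP-heptose were −0.33, −0.53 and −1.36, a direction that also follows from the choice by r. TP53INP1 was nearest to SEMA3A (0.9724), RBPJ (0.9639) and PROS1 (0.9583). The genes nearest to GADD45B (ABCA2, ECHDC2 and LIMK1) had r of 0.9225 to 0.9554, and those nearest to MDM2 (ZNF263, TAFAZZIN and SNUPN) had r of 0.8367 to 0.8961.

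In GENCODE release 29 the exons of CDKN1A, BBC3, PLK3, MDM2 and SESN1 overlapped exons of other genes. Any single overlapping gene shared at most 7.09% of their exonic bases, and shares of several overlapping genes were not combined. The overlapping gene with the most reads was TCTEX1D4, on the opposite strand to PLK3, with 969 counts over the 9 libraries beside 9058 for PLK3 and 2.24% of the exonic bases of PLK3 shared. Since it is not given in the sources used here whether reads were counted by strand, reads in the shared stretch cannot be told apart.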

How the data were processed

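Poly(A) RNA of 9 HT-29 libraries was sequenced as paired reads. Per the labels and the study's methods, the authors aligned reads with HISAT2 and obtained counts with featureCounts. Raw counts of each library were deposited as a column of 1 table, without pooling. Versions, genome build, annotation and strand setting are not given in the sources used here. The table has 62710 gene identifiers, and the repeats of 232 of them, which held the same counts, were dropped.

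Counts of all 9 libraries were fitted together with edgeR 4.0.16 in R 4.3.3 (TMM factors, filterByExpr defaults, robust quasi-likelihood fit, group as the only term), leaving 17412 genes, and p-values were adjusted by Benjamini-Hochberg over all of them. The scripts were tested on simulated counts. To normalize, each count was scaled from its effective library size to the geometric mean of these sizes. RPKM used the union of GENCODE 29 exons (GRCh38), and positions are from the same release. Promoter windows are RefSeq's (GRCh38.p14).

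At these depths all 10 genes had at least 74 counts in each library. In total 17 alternatives were tried, among them DESeq2 1.42.0, other scalings and filters, the 6 libraries of a comparison, a replicate block and leaving out each library. The 10 genes and the gene lists were chosen with earlier results of these data known. Named genes were the 10, each gene of the other lists that was called after either stimulus, MDM4, the relatives of the 10, and the 3 genes most like each of the 10, except that 2 genes this rule names are not reported here. Adjusted p-values that DESeq2 left undefined were counted as no call.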

Additional observations from a re-analysis of the deposited data

How the results depend on the processing

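Over the 17 alternatives, CDKN1A, BBC3, PLK3, GDF15, AEN and SESN1 kept their direction and their call after ADP-heptose, and the number of the 10 genes at least 2-fold higher was 4 in each. The number lower was 2, and 1 with 6 libraries or the replicate block and 1 to 2 leaving out single libraries; the gene lost was TP53INP1 (adjusted p = 0.0793 with the block). The number higher after flagellin was 0, and 2 with 6 libraries and 0 to 2 leaving out single libraries. Of the 26 other p53 targets, the number lower after ADP-heptose went from 0 to 1 with length and GC offsets or no filter, 5 with library totals and 0 to 2 leaving out single libraries, and against flagellin to 1 with no filter. The number higher after flagellin went from 1 to 3 with 6 libraries, 2 with DESeq2, 0 with the block and 0 to 3 leaving out single libraries. Whether the replicate numbers pair the libraries was not settled. Of 9 same-numbered pairs, 2 correlated over 0.1, and 0 of 9 libraries correlated best with their own number in both other groups. The correlations were of deviations from group means, which sum to 0 within a group. Each non-stimulated and flagellin library correlated in the same direction with ADP-heptose replicates 1 and 2. The opposite direction for ADP-heptose replicate 3 is then fixed by the centering. These correlations are therefore not independent of each other and cannot exclude pairing.

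Reversals were of uncalled values near 0. With length and GC offsets, values after flagellin were −0.00422 for AEN, −0.0735 for GADD45A, −0.0322 for GADD45B, −0.0274 for GDF15 and 0.0137 for SESN1, and MDM2 was at 0.0553 after ADP-heptose. GADD45A after flagellin was also at −0.00338 (6 libraries), −0.000287 (DESeq2 size factors), −0.0157 (library totals), −0.00623 (mean of at least 10 counts), −0.009999 (no filter) and −0.00268 (replicate block). MDM2 between the stimuli was at −0.0496 with library totals. Leaving out single libraries, GADD45A ranged from −0.0619 to 0.0718, GADD45B from −0.0683 to 0.143, GDF15 from −0.00564 to 0.0998 and SESN1 from −0.0608 to 0.0536 after flagellin, and MDM2 from −0.0907 to 0.0136 after ADP-heptose and −0.0139 to 0.127 between stimuli. The cause was not tested.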
